A study of Mus musculus with 16 samples.

Results

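Fat cells, or adipocytes, store triglyceride in a large lipid droplet and secrete hormones, and 8 genes that are used to mark them were followed here in the RNA of whole mouse lungs. They were Plin1, Cidec and Cidea, whose proteins sit on the droplet, the adipocyte hormones and secreted factors Adipoq, Retn, Cfd and Lep, and Ucp1, the uncoupling protein of brown fat. The set was chosen by the levels of Cidea on these same arrays, higher in lungs of 12-month than of 2-month mice and lower after diphtheria toxin (DT), and the question was whether other fat genes followed it. Differences of Cidea between groups are therefore described, with no test, wherever ARF-DTR samples enter a comparison. For DT in wild type lungs a test of Cidea is printed, but it is not independent of the choice either. The 8 genes were read by 10 of the 55681 probes on the array, and 6 of the 8 were bright enough to be among the 25574 genes tested.

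RNA came from lungs of female mice in 5 groups, with 1 array per sample. In ARF-DTR mice a receptor for DT is driven by the promoter of Arf (from the Cdkn2a locus), which is active in senescent cells and so makes these cells sensitive to the toxin. The ARF-DTR groups of 4 samples each were lungs of 12-month mice injected with DT, lungs of 12-month mice injected with saline (PBS) and lungs of untreated 2-month mice. Of 12-month wild type mice, which lack the transgene, there were 2 samples with DT and 2 with PBS. Injections were into the peritoneum, every 2 weeks over 1 month, and the DT dose was 50 microgram for each kg of body weight. The 2-month mice were untreated, so age and injection cannot be told apart in the comparisons with them, including the one called age below. Whether samples of a group are different mice is not stated in the labels, and p-values therefore speak of the spread among samples, part of which may be technical. For 1 of the wild type PBS samples, replicate 1, a free-text label names DT, whereas its title and treatment say PBS, which was followed. For both wild type DT samples the same field leaves DT out, so the labels do not match for 3 of the 4 wild type samples, on which DT against PBS in wild type rests.

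The arrays lay on 2 slides of 8. The 12-month PBS and 2-month ARF-DTR samples were on slide 1, and on slide 2 were DT-treated ARF-DTR and wild type lungs. DT against PBS in ARF-DTR lungs thus crosses slides, so an effect of slide and one of DT cannot be told apart, whereas the age comparison and those among DT-treated ARF-DTR and wild type lungs lie within a slide. On each slide the first row of arrays held 1 set of groups and the second row the others, so row goes with age on slide 1 and with genotype on slide 2. All levels below are log2 signals relative to the 75th percentile of the same array, which lay between 613 and 1088 intensity units. A value of 0 is thus a bright probe, and values near -6 are at background. Levels are compared between samples for 1 probe, and those of different probes are not set against each other as amounts of RNA. The number of arrays limits the precision.

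Triglyceride in fat cells is coated by perilipin 1, the product of Plin1, which holds lipases off the droplet until adrenergic signals call for lipolysis. Cidec (also known as Fsp27) and Cidea belong to the CIDE family of proteins, which gather at contacts between droplets and let the smaller one empty into the larger. Cidec is characteristic of white fat, where a single droplet fills the cell, and mouse Cidea of brown fat, where many small droplets feed heat production through Ucp1. Adipoq encodes adiponectin, an insulin-sensitising hormone, Retn resistin, Cfd adipsin, a protease of the alternative complement pathway, and Lep the satiety hormone leptin. The lung has few adipocytes of its own, while fat lies beside the heart, the large airways and the mediastinum. In whole lung RNA, fewer cells of a type and less RNA per cell cannot be told apart.

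Probes of 4 of the genes are shown because they define what the array measured, 3 in genes that were detected and 1, that of Ucp1, in a gene that was not. Each has 60 bases and at least 1 reading frame without a stop, which does not show that it is coding. In mm9 the Adipoq probe lay at chr16:23157576-23157635 on the plus strand, the Cidec probe at chr6:113378116-113378175 on the minus strand, the Retn probe at chr8:3657312-3657371 on the plus strand and the Ucp1 probe at chr8:85821788-85821847 on the plus strand.
Adipoq: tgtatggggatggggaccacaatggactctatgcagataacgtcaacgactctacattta
Cidec: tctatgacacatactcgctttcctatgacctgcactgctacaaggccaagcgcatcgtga
Retn: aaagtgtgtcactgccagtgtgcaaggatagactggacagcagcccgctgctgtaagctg
Ucp1: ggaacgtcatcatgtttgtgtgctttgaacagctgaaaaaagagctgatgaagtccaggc
For Cidec and Retn the levels below come not from the probe printed but from a second one, brighter on average, at chr6:113374630-113374689 and chr8:3659757-3659816. Over the 16 arrays the probes of Retn had a correlation of 0.999, and those of Cidec 0.936. The single probes of Plin1, Cfd and Lep lay at chr7:86866112-86866171, chr10:79355302-79355361 and chr6:29023234-29023293. An annotation of that build was not used here, so exon and UTR are not given.

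The 6 detected genes were well above background on all 16 arrays. The 2 others were not. Lep was well above background on 0 of 16 arrays, with levels between -7.26 and -5.58. Ucp1 was well above background on 1 array, PBS-treated ARF-DTR replicate 3 at -4.58, and its lowest level was -7.94. For the other 3 PBS-treated ARF-DTR samples, for 12 further arrays and for leptin throughout, the signal gives only an upper bound, so no difference between groups is given for these genes.

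Plin1 had levels of -2.25, -2.62, -1.69 and -3.95 in the 4 DT-treated ARF-DTR lungs, -1.64, -2.71, -3.12 and -2.34 in the PBS-treated ones and -4.14, -3.24, -0.77 and -2.18 in 2-month lungs (replicates 1 to 4 in order). Wild type lungs had -2.63 and -2.10 with DT, against -3.06 and -2.69 with PBS. The 2-month lungs held both the lowest and the highest level of the series, and the 3 ARF-DTR groups overlapped.

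Cidec had levels of 1.61, 1.55, 1.92 and 1.39 in DT-treated ARF-DTR lungs, 1.65, 1.42, 1.06 and 1.64 in PBS-treated ones and 1.50, 1.36, 2.86 and 1.91 in 2-month lungs. Its wild type levels were 1.47 and 1.82 with DT, against 1.19 and 1.10 with PBS. Again 2-month replicate 3 stood above all other samples, and the rest lay close together.

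Cidea had levels of -0.01, -0.16, 0.27 and -0.25 in DT-treated ARF-DTR lungs, 1.03, 0.87, 1.04 and 1.23 in PBS-treated ones and -1.01, -0.57, 0.41 and -0.10 in 2-month lungs. In wild type lungs it had 0.48 and 0.80 with DT, against 1.38 and 1.33 with PBS. The probe lies on chromosome 18 of mm9, from 67527351 to 67527410. All PBS-treated lungs of 12 months, of either genotype, were above all other samples. The DT-treated ARF-DTR levels lay inside the range of the 2-month levels, and the wild type DT levels lay between those and the PBS levels.

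Adipoq had levels of 1.21, 0.44, 1.87 and -0.03 in DT-treated ARF-DTR lungs, 1.20, -0.14, -0.35 and 0.78 in PBS-treated ones and -1.79, -0.79, 2.61 and 1.09 in 2-month lungs. Levels in wild type lungs were 0.56 and 0.70 with DT, against -0.61 and 0.63 with PBS. From the lowest to the highest 2-month lung Adipoq spanned 21.1-fold, and the other groups lay within that span.

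Retn had levels of 1.49, 1.37, 2.24 and 0.48 in DT-treated ARF-DTR lungs, 1.87, 0.93, 0.19 and 1.19 in PBS-treated ones and -1.05, -0.60, 2.67 and 1.65 in 2-month lungs. Wild type lungs had 1.02 and 1.23 with DT, against 0.59 and 1.71 with PBS. Its order of samples was that of Adipoq in each ARF-DTR group.

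Cfd had levels of 4.61, 3.70, 5.29 and 2.91 in DT-treated ARF-DTR lungs, 5.12, 3.76, 3.34 and 4.16 in PBS-treated ones and 2.59, 3.71, 6.38 and 5.08 in 2-month lungs. Its wild type levels were 4.20 and 4.08 with DT, against 2.77 and 4.08 with PBS. As for Adipoq, 2-month replicate 1 was the lowest sample and 2-month replicate 3 the highest.

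**Figure D1:**
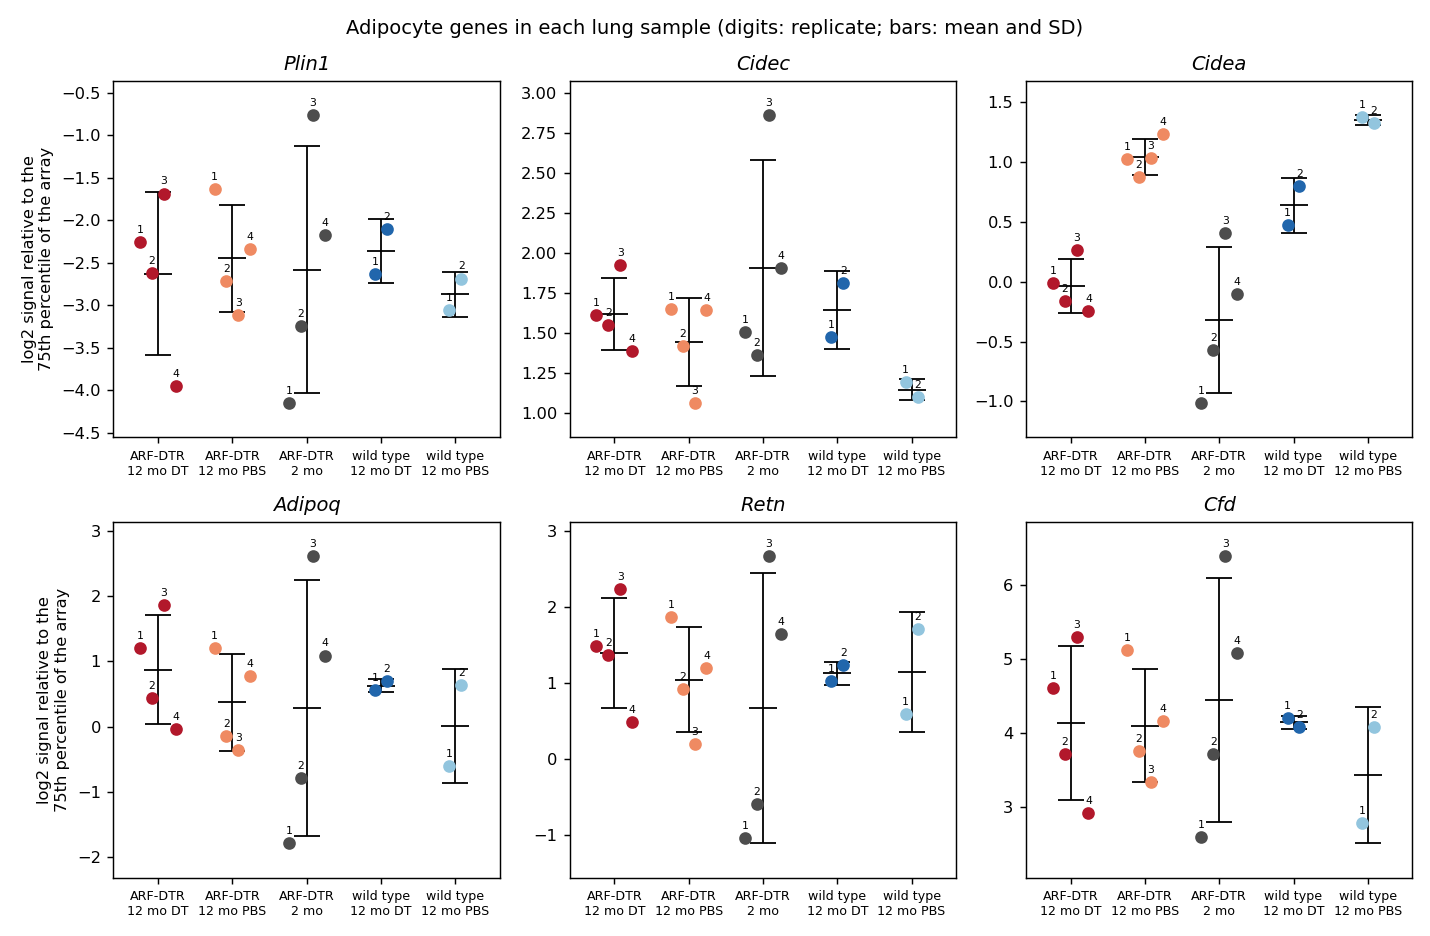
Log2 signal relative to the 75th percentile of the array (vertical axes) for the 6 detected genes in each lung sample, by group (horizontal axes), with the mean and SD of each group as bars and the replicate number above each point. Cidea separates the PBS-treated 12-month lungs from the others, while Plin1, Adipoq, Retn and Cfd spread most among the 2-month lungs, where replicate 1 is lowest and replicate 3 highest.

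At 12 months Cidea, which was not tested here, was higher, and the 5 genes that were tested did not pass. In PBS-treated 12-month ARF-DTR lungs Cidea averaged 1.04 ± 0.147, against -0.32 ± 0.611 in 2-month lungs (SD, n = 4 each), a difference of 1.36 or 2.57-fold. Of the other 5 genes, 0 rose and 0 fell at an adjusted p under 0.05, where 6.14% of all genes tested were called in either direction. Their log2 differences were -0.46 ± 0.27 (SE) for Cidec, -0.35 ± 0.73 for Cfd, 0.09 ± 0.79 for Adipoq, 0.13 ± 0.64 for Plin1 and 0.38 ± 0.71 for Retn. Adjusted p in limma lay between 0.367 and 0.968, and with these probes 0 of the 5 were under 0.05 before adjustment. The other Cidec probe, the one printed above, gave a larger fall of -0.67 ± 0.27 (adjusted p = 0.181 in limma). The groups overlapped for each of the 5, and for Cidea they did not, as for 13% of all genes.

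The spread among samples left wide intervals. The 95% intervals of the age difference ran from -1.04 to 0.11 for Cidec and from -1.93 to 1.23 for Cfd, so that they left out a rise of the size seen for Cidea. Those of Plin1 (-1.24 to 1.51), Adipoq (-1.61 to 1.79) and Retn (-1.16 to 1.91) included it. The standard errors, from 0.27 to 0.79 on the log2 scale, compare with a median of 0.11 over all genes. Without 2-month replicates 1 and 3 together, a choice made after seeing the data, Cidea was at 1.38 and Cidec at -0.19, Cfd at -0.30, Adipoq at 0.22, Plin1 at 0.26 and Retn at 0.52 (adjusted p = 0.742 or more). Without 2-month replicate 3 alone the differences were 0.87 for Adipoq and 1.04 for Retn, and without replicate 1 alone they were -0.60 and -0.20, and 0 of these passed.

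With DT in ARF-DTR lungs, Cidea, again not tested, was lower, and the 5 tested genes did not pass. Cidea averaged -0.04 ± 0.225 in DT-treated lungs, against 1.04 ± 0.147 in PBS-treated lungs (SD, n = 4 each), a difference of -1.08. Of the other 5 genes 0 passed in either direction, where 29.3% of all genes did. Adipoq was at 0.50 ± 0.79 (SE), Retn at 0.35 ± 0.71, Cidec at 0.18 ± 0.27, Cfd at 0.04 ± 0.73 and Plin1 at -0.18 ± 0.64, with adjusted p between 0.653 and 0.977 in limma. The printed Cidec probe was at 0.40 ± 0.27 (adjusted p = 0.288 in limma). For the brighter probe, the interval of Cidec, from -0.40 to 0.75, left out a fall of the size seen for Cidea. Those of Adipoq (-1.20 to 2.20), Retn (-1.19 to 1.89), Cfd (-1.55 to 1.62) and Plin1 (-1.55 to 1.20) included it. The groups overlapped for these 5 and not for Cidea, as for 30.6% of all genes. The age and DT comparisons share the 4 PBS arrays of ARF-DTR mice.

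Wild type lungs with DT lay on the same slide as their PBS controls. Cidea was chosen in part for being lower after DT, and wild type lungs were not set apart in that choice. In the fit its spread was also taken from all arrays, ARF-DTR ones included. The test of Cidea given here is therefore not independent of its choice, and no conclusion is drawn from its p-value. Cidea averaged 0.64 with DT, against 1.35 with PBS (n = 2 each), a log2 difference of -0.71 ± 0.33 with a 95% interval from -1.43 to 0.00 that did not pass in limma (adjusted p = 0.394). Without wild type PBS replicate 1, the sample with conflicting labels, the difference was -0.69. Over all alternatives that left out 1 array it lay between -0.88 and -0.55. The other 5 genes were at 0.71 ± 1.04 (Cfd), 0.62 ± 1.11 (Adipoq), 0.51 ± 0.90 (Plin1), 0.50 ± 0.38 (Cidec) and -0.02 ± 1.01 (Retn), and 0 passed, where 0.176% of all genes did. Both DT samples were above both PBS samples for Cidec and Plin1 and below them for Cidea, and groups that do not overlap occurred for 43.5% of all genes here.

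The response of Cidea to DT differed by -0.37 between ARF-DTR and wild type lungs, a description since it uses the arrays for which Cidea was chosen. In this test of the difference between genotypes, 2.1% of all genes passed and 0 of the 5 others. Within slide 2, Cidea was at -0.68 in DT-treated ARF-DTR against DT-treated wild type lungs and at -1.39 against PBS-treated wild type lungs. Of the 5 other genes 0 passed in these 2 comparisons, in which 0.888% and 5.51% of all genes did. PBS-treated ARF-DTR against PBS-treated wild type lungs, across slides, gave -0.31 for Cidea and 0 calls among the 5, with 23.6% of all genes called. DT-treated 12-month against 2-month ARF-DTR lungs gave 0.28 for Cidea and again 0 calls, with 30.8% called.

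**Figure D2:**
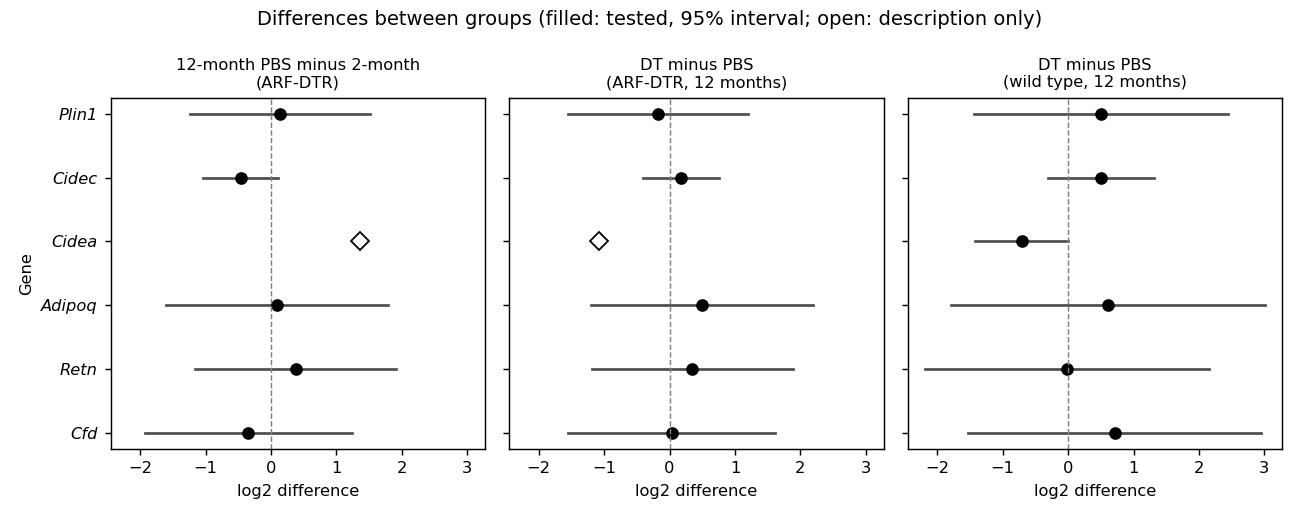
Log2 differences (horizontal axes) of the 6 genes (vertical axis) between 12-month PBS and 2-month ARF-DTR lungs, between DT and PBS in ARF-DTR lungs and between DT and PBS in wild type lungs. Filled points were tested and carry 95% intervals, and open diamonds are descriptions of Cidea, at 1.36 and -1.08. The test of Cidea in wild type lungs is not independent of its choice. All filled intervals include 0.

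Adipoq, Cfd, Retn and Plin1 varied widely inside groups. The SD within groups, pooled over the 5 groups, was 1.21 for Adipoq, 1.13 for Cfd, 1.09 for Retn and 0.977 for Plin1, against a median of 0.154 over all genes tested. The SD of Adipoq exceeded that of 99.2% of genes. Cidec and Cidea varied less, at 0.406 and 0.356. Of the total variation, 82.2% lay between groups for Cidea and 33.0% for Cidec, against 8.94% for Cfd, 7.63% for Retn, 7.48% for Adipoq and 3.13% for Plin1. The share of Cidea is a description that follows in part from its choice, which used its differences between groups.

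Within the ARF-DTR groups the genes varied largely together from sample to sample. In DT-treated ARF-DTR lungs all 6 had the same order of the 4 samples, with replicate 3 highest and then 1, 2 and 4. In PBS-treated ARF-DTR lungs the order 1, 4, 2 and 3 was that of 5 genes, and Cidea had another, with replicate 4 highest and 2 lowest. For Cidec these orders hold for the brighter probe. Its printed probe had 3, 2, 1 and 4 with DT and 1, 2, 4 and 3 with PBS. In 2-month lungs the order 3, 4, 2 and 1 was that of 5 genes, and Cidec had replicates 1 and 2 the other way round. In wild type lungs with DT, Cfd had the opposite order to the other 5 genes, and with PBS Cidea and Cidec had the opposite order to the other 4. Deviations from the group mean followed those of Adipoq with r = 0.979 for Cfd, 0.977 for Retn, 0.952 for Plin1, 0.904 for Cidea and 0.869 for Cidec over the 16 samples. An exact permutation test that reorders samples within groups, two-sided with 55296 rearrangements and adjusted over these 5 relations, gave p = 0.00197 for Cidea, 0.00176 for Cidec and 6.03e-05 or less for the others. With the 2-month lungs left out, r was 0.972 for Cfd, 0.945 for Retn, 0.889 for Plin1, 0.739 for Cidec and 0.627 for Cidea over 12 samples.

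**Figure D3:**
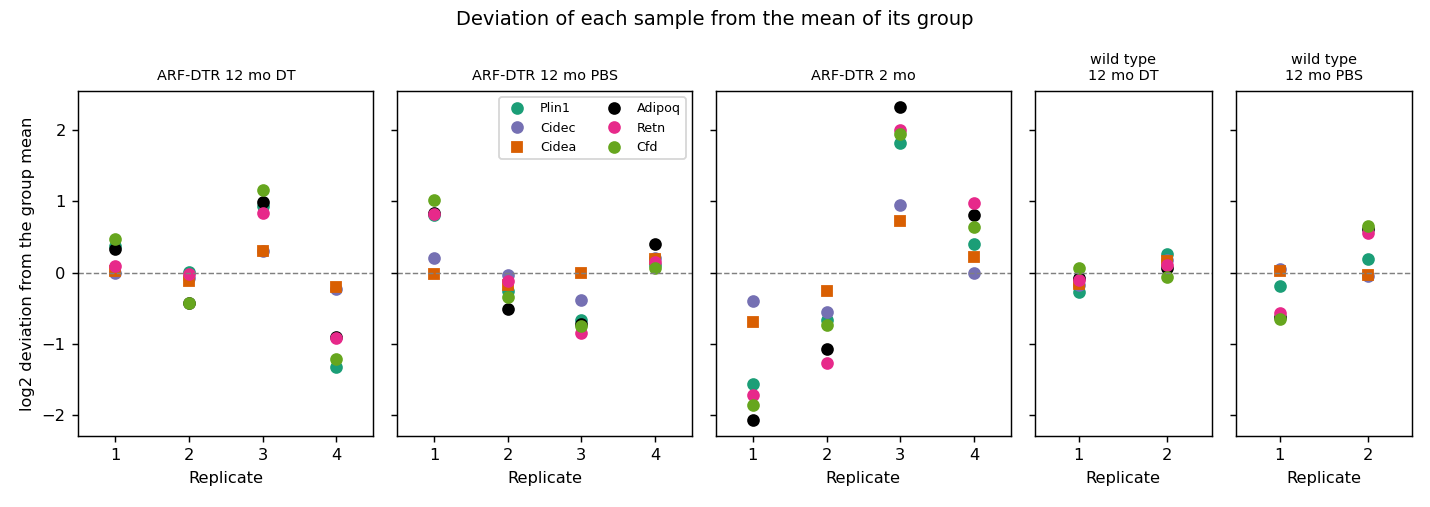
Deviation of the log2 signal of each sample from the mean of its group (vertical axis) by replicate (horizontal axis) in the 5 groups, with a colour per gene and squares for Cidea. The 6 genes are together high in 2-month replicate 3 and DT replicate 3 and together low in 2-month replicate 1 and DT replicate 4, and in PBS-treated ARF-DTR lungs Cidea stays near 0 while the others spread.

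Over the levels themselves, group differences included, the correlation with Adipoq over the 16 samples was r = 0.953 for Retn, 0.924 for Cfd, 0.917 for Plin1 and 0.726 for Cidec, and Spearman's rho was 0.918, 0.921, 0.921 and 0.782 in that order. For Cidea it was r = 0.263 and rho = 0.129. Permutation p, adjusted over the 4 relations without Cidea, was 1.33e-05 for Retn, Cfd and Plin1, the smallest that 100000 permutations can give after adjustment, and 0.00159 for Cidec (for rho 1.33e-05 and 0.00054). The levels of Cidea chose the set, so its r and rho are a description with no test. Without the 2 samples farthest from the median of Adipoq, 2-month replicates 1 and 3, r was 0.913 for Retn, 0.874 for Cfd, 0.824 for Plin1, 0.748 for Cidec and -0.02 for Cidea. Within slides r for Cidea was 0.495 on slide 1 and -0.31 on slide 2, where Cidec had 0.793 and 0.716 and Retn 0.974 and 0.893.

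**Figure D4:**
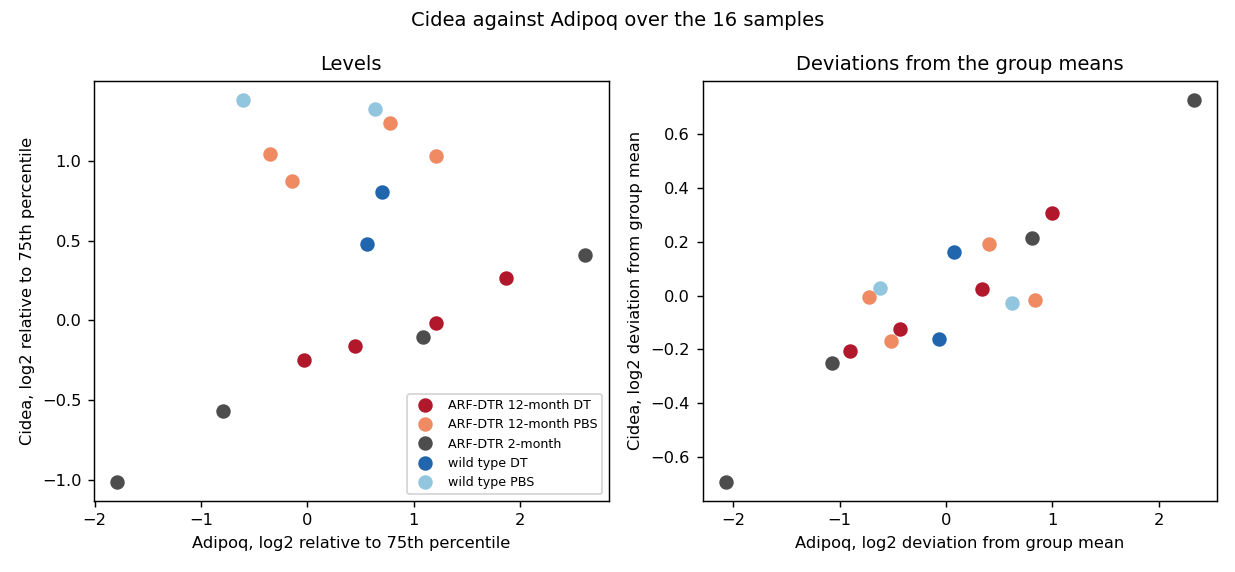
Cidea (vertical axes) against Adipoq (horizontal axes) over the 16 samples, on the left as log2 levels (r = 0.263) and on the right as deviations from the group means (r = 0.904), with a colour per group. On the left the PBS-treated groups form a band at high Cidea whatever their Adipoq, and on the right the 2-month samples mark both ends.

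The genes most like Cidea over the 16 arrays were not fat genes by name. They were Bbox1, which makes carnitine from its precursor (r = 0.957), Syt5, a synaptotagmin (0.952), Rab3b, a vesicle GTPase (0.951), and Gm6329 (0.939). After these came a transcript with no gene name, Camta1, a transcriptional activator (0.939), Fam81a (0.936) and Tbata (0.933), and in all 26 genes reached 0.9. The genes most like Adipoq, members left out, were Car3, a carbonic anhydrase abundant in fat and muscle (0.977), and Fabp4, the fatty acid carrier of adipocytes (0.941). Pck1, an enzyme of glyceride-glycerol synthesis in fat (0.889), Tmem45b (0.896), B3galt2 (0.885) and Thrsp, a lipogenic regulator (0.883), followed with 2 unnamed transcripts. The correlation with Adipoq was 0.8 or more over arrays for 26 genes, 0.102% of those tested, and within groups for 317, or 1.24%. These are descriptions of the same 16 arrays.

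Fabp4 had levels of 3.10, 2.48, 3.74 and 2.20 in DT-treated ARF-DTR lungs, 3.22, 2.39, 2.34 and 3.29 in PBS-treated ones and 1.25, 2.08, 4.59 and 3.03 in 2-month lungs. It had 3.57 and 3.44 in wild type lungs with DT, against 2.09 and 2.82 with PBS. Car3 had 2.84, 1.61, 1.28 and 2.21 in PBS-treated ARF-DTR lungs and -0.64, 0.62, 3.82 and 2.27 in 2-month lungs. Its wild type levels were 1.70 and 2.30 with DT, against 0.77 and 1.71 with PBS. Both were highest in 2-month replicate 3 and lowest in 2-month replicate 1, as Adipoq was, and the ARF-DTR groups overlapped. The wild type groups overlapped for Car3 and not for Fabp4, and 43.5% of all genes had no overlap there.

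The wider list of white adipocyte genes, members apart, held 33 genes, of which 31 were measured. With age 1 rose and 2 fell, where 2.73% of all genes rose and 3.41% fell. Sncg, a synuclein abundant in white fat, rose by 0.93 ± 0.17 (adjusted p = 0.00723), and Mest, a marker of fat expansion, and Trarg1, a partner of insulin-regulated glucose transport, fell (-0.90 ± 0.18 and -0.46 ± 0.12, adjusted p = 0.0121 and 0.0345). The median of the list was -0.07, beside -0.03 over all genes. With DT in ARF-DTR lungs 4 rose and 4 fell, where 15.9% of all genes rose and 13.5% fell, and the median was -0.03, beside 0.00. Nnat, a small membrane protein induced in fat cell differentiation, rose by 1.77 ± 0.23 and Cebpa, a master regulator of adipocytes, by 0.68 ± 0.12. Sfrp5, a secreted Wnt inhibitor, fell (-1.27 ± 0.44), as did the amino acid transporter gene Slc7a10 (-0.72 ± 0.15). Leaving out single arrays gave 5 to 9 calls with DT in place of 8, with 5 without DT replicate 3 or 4 or PBS replicate 1 or 3 of ARF-DTR lungs. Within groups 10 of the 31 had r of 0.8 or more with Adipoq, as had 1.24% of all genes.

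Of the 26 brown adipocyte genes on the list, 22 were measured. With age 1 rose and 1 fell, where 2.73% of all genes rose and 3.41% fell. These were Esrrg, a nuclear receptor of oxidative tissues (0.60 ± 0.15), and Slc36a2, an amino acid transporter gene (-0.36 ± 0.10). Their median was 0.26, beside -0.03 over all genes. With DT in ARF-DTR lungs 0 rose and 4 fell, where 15.9% of all genes rose and 13.5% fell, and the median was -0.54, beside 0.00. The 4 were Dio2, the deiodinase that activates thyroid hormone (-1.22 ± 0.30, adjusted p = 0.00999), Pdk4, which restrains glucose oxidation (-1.03 ± 0.28), Esrrg (-0.53 ± 0.15) and the transcription factor gene Zic1 (-0.39 ± 0.10). Dio2 had levels of -3.48, -3.79, -3.18 and -3.87 in DT-treated ARF-DTR lungs, -1.98, -2.56, -2.50 and -2.40 in PBS-treated ones and -3.81, -3.04, -2.09 and -2.59 in 2-month lungs. The DT-treated levels were below all PBS-treated ones. In wild type lungs on slide 2 Dio2 had -4.17 and -3.63 with DT, against -3.36 and -2.94 with PBS (-0.75 ± 0.43, adjusted p = 0.501). The list as a whole did not fall there, with a median of 0.08, beside -0.02 over all genes. Within slide 2, DT-treated ARF-DTR lungs had a median of -0.15 against wild type PBS and -0.29 against wild type DT. In these 2 comparisons 0 of the 22 were called, where 5.51% and 0.888% of all genes were. Leaving out single arrays gave 0 to 4 calls with age, 0 without 2-month replicate 1, 2 or 4 or PBS replicate 1, 3 or 4 of ARF-DTR lungs and 4 without 2-month replicate 3. It gave 3 to 9 calls with DT, with 9 without 2-month replicate 1. Several genes of this list are also expressed in heart muscle.

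Among 17 further genes of droplet coats and lipolysis 0 passed with age, where 6.14% of all genes did. With DT in ARF-DTR lungs 2 rose and 3 fell, where 15.9% of all genes rose and 13.5% fell, and leaving out single arrays gave 2 to 5 calls, with 2 without DT replicate 3 or 4 or PBS replicate 3. Cideb, the member of the CIDE family known from liver, rose by 0.90 ± 0.22, whereas Plin5, a droplet coat of oxidative tissues (-0.57 ± 0.17), the lipase inhibitor gene G0s2 (-0.45 ± 0.08) and Pnpla2, which encodes the main triglyceride lipase (-0.29 ± 0.09), fell. Of 15 fatty acid synthesis genes 0 passed with age, and with DT Scd1 and Scd2, 2 desaturase genes, rose (0.80 ± 0.19 and 0.22 ± 0.08) and Mlxipl, a carbohydrate-sensing transcription factor, fell (-0.31 ± 0.10). These 3 calls of 15, 2 higher and 1 lower, stand beside the same shares of all genes, and leaving out single arrays gave 1 to 6, with 6 without either wild type DT sample and 1 without DT replicate 1, 3 or 4 or PBS replicate 3 of ARF-DTR lungs. Of 11 receptors and signalling genes downstream of adipokines, insulin and adrenaline, Irs1 fell with age (-0.52 ± 0.08), and Adipor2, a receptor of adiponectin (0.42 ± 0.08), and C3ar1, the receptor of the complement fragment C3a (0.68 ± 0.18), rose with DT, beside those same shares. In wild type lungs 0 genes of these 5 lists passed with DT.

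Of other cell types that a dissected lung can hold, mainly the muscle genes moved with the fat genes from sample to sample. The mean level of 12 heart muscle genes had r = 0.828 with Adipoq and 0.840 with Cidea within groups, and 8 of the 12 had 0.8 or more with Adipoq, as had 1.24% of all genes. So had 3 of 7 skeletal and 2 of 8 smooth muscle genes, beside 10 of 31 white and 6 of 22 brown adipocyte genes. The other lists of this paragraph held 0 such genes. Lists of 7 skeletal and 8 smooth muscle genes had 0.834 and 0.826 with Adipoq, 6 nerve genes 0.676 and 16 ciliated cell genes, a list added after seeing the data, 0.635. Cartilage (0.475), fibroblast (0.387) and lymph node B cell genes (0.138) had lower values, and thymus and erythroid genes had -0.46 and -0.45. Mesothelial (0.212), alveolar macrophage (0.072) and alveolar type 2 genes (-0.02) were near 0. The summed level of the heart muscle genes, in units of the 75th percentile, was 84.6 to 129 in DT-treated ARF-DTR lungs, 149 to 283 in PBS-treated ones and 34.5 to 326 in 2-month lungs, and 11 of the 12 genes were well above background on all arrays. In wild type lungs it was 122 to 173 with DT, against 86.7 to 113 with PBS.

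Of the lists of other cell types, the 3 with the highest correlation with Cidea over the 16 arrays, ciliated cell (r = 0.833), lymph node B cell (0.675) and heart muscle genes (0.479), are given beside it. With Adipoq they had 0.218, 0.105 and 0.706 in that order. The levels of Cidea picked these lists, so their differences between groups follow in part from that choice and are descriptions. The ciliated cell list was also added after seeing the data. The median of the heart muscle genes was 0.87 with age and -1.21 with DT in ARF-DTR lungs, and 0.62 with DT in wild type lungs. Of the 12, 0 rose and 1 fell with age, where 2.73% of all genes rose and 3.41% fell, and 1 rose and 1 fell with DT in ARF-DTR lungs, where 15.9% rose and 13.5% fell. With DT in wild type lungs 0 of the 12 were called, with 2 samples in each group. The median of 8 lymph node B cell genes was 0.65 with age (2 rose), -0.29 with DT in ARF-DTR (1 fell) and -0.15 with DT in wild type lungs (0 called). Their summed level was 23.0 to 35.5 in DT-treated ARF-DTR lungs, 23.6 to 42.2 in PBS-treated ones and 19.5 to 24.3 in 2-month lungs, and 35.8 to 45.4 with DT, against 46.1 to 50.0 with PBS in wild type lungs. The median of the ciliated cell genes was 0.33 with age, -0.49 with DT in ARF-DTR and -0.26 with DT in wild type lungs, with 0, 9 and 0 of 16 lower, where 13.5% of all genes were lower with DT in ARF-DTR lungs. Within slide 2, lungs of DT-treated ARF-DTR against PBS-treated wild type mice had 7 of 16 lower (median -0.76), where 3.39% of all genes were lower. In that comparison, in which genotype and DT both differ, 2 of 8 lymph node B cell and 0 of 12 heart muscle genes were lower. Against DT-treated wild type lungs 0 of the 16 ciliated cell genes were called (median -0.47), where 0.888% of all genes were. The summed level of the ciliated cell genes was 93.0 to 117 in DT-treated ARF-DTR lungs, 111 to 121 in PBS-treated ones and 92.8 to 125 in 2-month lungs, and 104 to 119 with DT, against 128 to 139 with PBS in wild type lungs. Smooth muscle genes, given for their likeness to Adipoq within groups, had a median of -0.52 with age (1 of 8 lower). With DT in ARF-DTR lungs, across slides, it was -0.68 (6 of 8 lower). Within slide 2 it was -0.42 with DT in wild type lungs. For DT-treated ARF-DTR lungs it was -0.49 against wild type PBS and -0.14 against wild type DT. In these 3 comparisons 0 of 8 were called, where 0.176%, 5.51% and 0.888% of all genes were. The part of these cell types in the levels of Cidea was not tested.

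**Figure D5:**
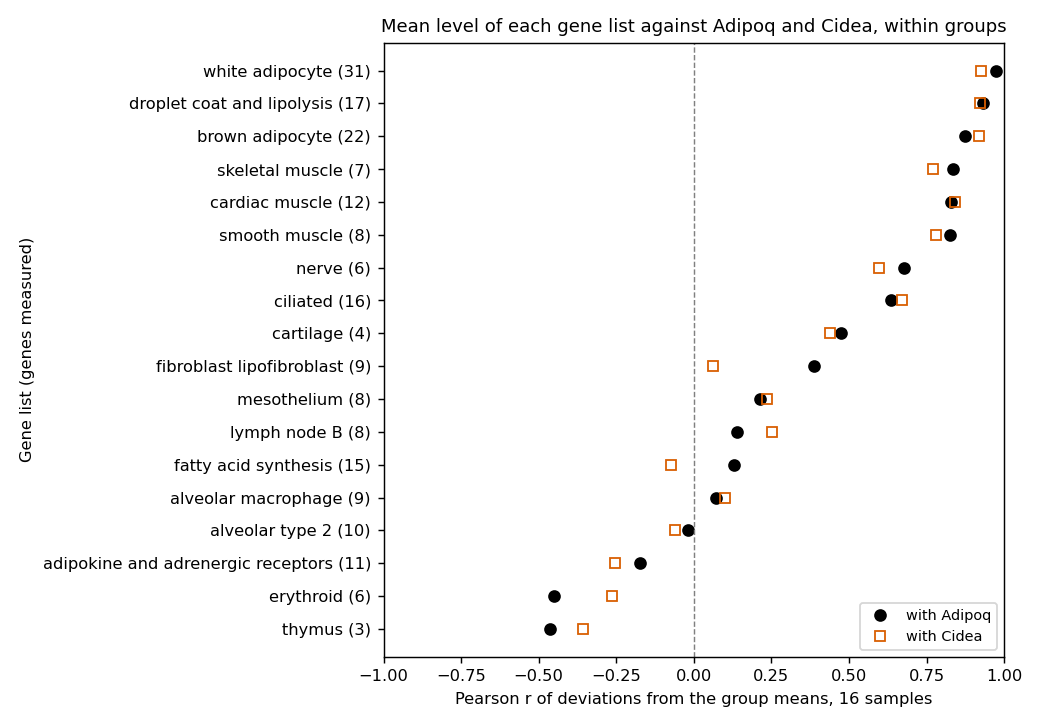
Pearson correlation (horizontal axis) of the mean log2 level of each gene list with Adipoq (filled circles) and with Cidea (open squares), as deviations from the group means over 16 samples, with the number of genes measured beside the name of each list. White adipocyte genes lie highest, the 3 muscle lists lie above 0.75, and alveolar type 2 and macrophage genes lie near 0.

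The promoters of the 4 genes that moved together most closely are shown, since sequence is one thing they might share. RefSeq holds windows for 7 of the 8 genes (GRCm38.p6), with 2 for Cidec. The 250 bases before each start site were searched on both strands for CCAAT, for TATAAA, for the nuclear receptor half-site AGGTCA and for TTGCNNAA, a pattern bound by C/EBP factors. No motif contains another. Capitals mark matches, with ATTGG being CCAAT on the other strand. The windows are chr16:23146286-23146535 on the plus strand for Adipoq, chr7:79732777-79733026 on the minus strand for Plin1, chr8:3655520-3655769 on the plus strand for Retn and chr10:79890603-79890852 on the plus strand for Cfd.
Adipoq: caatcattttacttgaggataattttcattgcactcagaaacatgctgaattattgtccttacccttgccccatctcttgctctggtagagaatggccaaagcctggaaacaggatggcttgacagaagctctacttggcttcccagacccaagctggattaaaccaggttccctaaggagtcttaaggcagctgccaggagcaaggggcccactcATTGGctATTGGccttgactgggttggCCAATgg
Plin1: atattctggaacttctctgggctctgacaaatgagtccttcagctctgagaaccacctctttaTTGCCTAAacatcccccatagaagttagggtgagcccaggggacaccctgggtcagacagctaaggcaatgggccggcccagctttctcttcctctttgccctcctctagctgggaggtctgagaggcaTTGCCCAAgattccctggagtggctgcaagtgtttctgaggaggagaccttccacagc
Retn: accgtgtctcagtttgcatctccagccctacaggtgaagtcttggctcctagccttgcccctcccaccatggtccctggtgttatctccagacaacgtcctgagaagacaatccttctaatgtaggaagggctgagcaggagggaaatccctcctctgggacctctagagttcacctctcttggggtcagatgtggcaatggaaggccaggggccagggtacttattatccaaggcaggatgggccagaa
Cfd: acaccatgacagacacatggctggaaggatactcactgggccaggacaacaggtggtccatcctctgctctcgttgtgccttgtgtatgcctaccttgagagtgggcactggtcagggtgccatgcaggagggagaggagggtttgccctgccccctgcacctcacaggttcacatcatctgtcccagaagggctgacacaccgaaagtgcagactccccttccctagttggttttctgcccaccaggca
Adipoq held CCAAT 3 times, 7, 27 and 34 bases before the start, where 33.8% of 32851 promoters hold it. Plin1 held TTGCNNAA 2 times, and of the 8 windows of these genes 3 held it (those of Plin1, Lep and 1 of Cidec), against 9.56% of all promoters. AGGTCA was in the window of Ucp1 and TATAAA in 0 of 8, against 14.0% and 12.4% of all promoters. Retn and Cfd held 0 of the 4 motifs, so these letters are not shared by the 4 genes in these windows, which says nothing about binding.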

How the data were processed

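Per the file headers, single-colour Agilent arrays (Cy3) on a probe design of mouse build mm9 were scanned and read with Agilent Feature Extraction (10.10.1.1, per the submitters' processing notes). The deposited array files give spots in intensity units, and the signal after background subtraction and detrending was used here, with mean and local background intensity for 1 alternative. The authors' series table gives log2 values, which differed from log2 signal scaled to the 75th percentile by a median of 0.0067 and served as another alternative. Other steps of the authors are not stated in those sources.

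Groups came from sample titles. The free-text label of wild type PBS replicate 1 names DT, unlike its title, source name and treatment. Control spots were dropped. Among the other spots, outliers (105 to 171 per array) were dropped, and 0 were saturated. Each array's log2 signals were set relative to its 75th percentile. Probes bright enough on at least 4 of 16 arrays were retained (37037), and the brightest one stood for a gene, named through its RefSeq accession, symbol or file entry.

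Tests used limma (version 3.58.1, R 4.3.3), two-sided, with all 16 arrays in 1 fit, a mean per group and Benjamini-Hochberg adjustment over 25574 genes (threshold 0.05), after a check on simulated data. Values after ± beside a log2 difference are standard errors unless called SD. Alternatives were median scaling, quantile normalization, normexp with an offset of 50, no filter, the authors' table, the mean of probes, a variance trend, single slides, a replicate block and leaving out each array. Slide could not enter as a term, since no group spans both slides. The 8 genes and all lists were chosen with earlier results of these data known. Genes named from lists were up to 4 of those that passed, by size of change, and for likeness the 8 with the highest r. Deviations of samples of equal replicate number had r between -0.20 and 0.33 over 26 pairs, 6 of them over 0.1. This does not settle whether the numbers pair samples, and the main fit took samples as unpaired.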

Additional observations from a re-analysis of the deposited data

How the results depend on the processing

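In all 204 combinations of a comparison and a setting, 0 of the 5 fat genes other than Cidea passed the threshold, and leaving out single arrays kept that count at 0 to 0. Each gene had 212 values, the main fits included. Of these, 4 differed in sign from the main fit for Cidec, 15 for Plin1, 16 for Adipoq, 13 for Retn and 13 for Cfd. For Cidea, tested only with DT in wild type lungs, 0 did.

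The count over all genes moved more, and the causes were not tested. With age it was 960 on slide 1 alone and 632 without 2-month replicates 1 and 3, added after seeing the data, against 1570, and 920 to 1776 without single arrays. It was lower by more than 1.5 times without 2-month replicates 1, 2 or 4 or PBS replicates 3 or 4. With DT in ARF-DTR lungs it was 5382 to 8184. For DT in wild type lungs it was 26 with median scaling, 7 on slide 2 alone and 21 to 232 without single arrays, against 45. The difference of the DT response gave 288 with no filter and 226 to 1109 without single arrays, against 538. DT-treated against 2-month lungs gave 6039 to 8352. The genotypes given PBS gave 2317 to 6704, the lowest without wild type PBS replicate 1. DT-treated ARF-DTR lungs against wild type PBS gave 414 on slide 2 alone and 201 to 1692 without single arrays, against 1409. Against wild type DT they gave 3539 with no filter, 16 on slide 2 alone, 89 with a replicate block and 78 to 297 without single arrays, against 227.

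The replicate block gave 1479 genes with age, 7411 with DT in ARF-DTR and 66 with DT in wild type lungs, and changed no call among the fat genes. Median scaling put the median of all genes at -0.12 with age, against -0.03, and at 0.18 with DT in ARF-DTR lungs, against 0.00. The share of calls that were higher became 26.6% with age, against 44.5%, 83.2% with DT in ARF-DTR, against 54.1%, 42.3% with DT in wild type, against 31.1%, and 60.6% for the difference of the DT response, against 40.3%. It became 65.6%, against 48.1%, for DT-treated against 2-month lungs, 30.9%, against 46.2%, for the genotypes given PBS, and 64.1%, against 38.5%, for DT-treated ARF-DTR against wild type PBS. Quantile normalization gave 42.5% with DT in wild type lungs, and with normexp DT-treated ARF-DTR against wild type DT gave 54.9%, against 66.1%. Signal over background limits what can be said of Lep and Ucp1.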
